A study of Homo sapiens with 6 samples.

Results

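A set of 10 genes of the transforming growth factor beta (TGF-beta) system was followed in RNA-seq libraries of the human glioblastoma line U87MG, among 27257 genes with values. They were the ligands TGFB1, TGFB2 and TGFB3, the receptors TGFBR1, TGFBR2 and TGFBR3, the latent TGF-beta binding proteins LTBP1, LTBP2 and LTBP3, and LRRC32, whose protein is also called GARP. All 10 were found by gene ID in every library table. They were selected on the log2 fold change between the groups in these same libraries, which was already known (that of LRRC32 in particular), so their levels and differences are given below as descriptions and no p-value is printed for them.

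The study compared U87MG cells that received a control lentivirus for 24 h (U87MG-control, n = 3 libraries) with cells infected for the same time with a lentivirus that overexpresses LMO2 (U87MG-LMO2, n = 3 libraries), to learn which genes change when LMO2 is overexpressed. LMO2 is a LIM-domain adaptor protein that bridges transcription factors, and per the study's methods human LMO2 was cloned into a lentiviral vector with a CMV promoter and a puromycin marker. Both groups were grown in serum-containing medium and both carried a lentivirus, so no uninfected cells enter the comparison. Nothing in the labels says whether the 3 libraries of a group came from separate cultures, so the error reported is the spread between libraries, which may be technical. LMO2 itself, the check of the labels, had 0.378 to 0.803 CPM (normalised read count, scaled to library size) in the U87MG-control libraries and 307.0 to 877.9 CPM in the U87MG-LMO2 libraries, with the highest value in replicate 3. Control libraries held 11428432 to 13537284 counts and U87MG-LMO2 libraries 14630627 to 17892955, without overlap in depth. Of the glial and neural stem cell markers, VIM and NES were present, with NES at 44.5 ± 3.90 CPM (SD, n = 3) in U87MG-control, whereas S100B and SOX2 stayed under 1 CPM in every library.

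TGF-beta is made as a precursor whose propeptide stays bound to the mature growth factor after cleavage by furin, which keeps it latent. The latent complex is tied to a latent TGF-beta binding protein, which places it in the extracellular matrix, or to LRRC32, which holds it on the surface of cells such as regulatory T cells and platelets. After release by integrins or proteases, the ligand brings together the type II receptor TGFBR2 and the type I receptor TGFBR1, which phosphorylates SMAD2 and SMAD3. In glioblastoma, TGF-beta is known as an immunosuppressive and invasion-promoting factor, and TGFB2 was first purified from glioblastoma cells for its suppression of T cells.

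The sequences just upstream of the start sites of the ligands and of both latent binding proteins that passed the test are shown. Of the ligands, TGFB2 alone passed it. They are RefSeq windows of 250 bases on GRCh38.p14, written 5′ to 3′ on the strand of the gene and ending at the base before the start site. TGFB1 is at chr19:41353923-41354172 (minus strand), TGFB2 at chr1:218345086-218345335 (plus), TGFB3 at chr14:75983012-75983261 (minus), LTBP1 at chr2:32946703-32946952 (plus) and LTBP3 at chr11:65558360-65558609 (minus). For the genes with several start sites the outermost is shown. Capitals mark CAGAC, the SMAD-binding box, or GTCTG, the same box on the other strand.
TGFB1: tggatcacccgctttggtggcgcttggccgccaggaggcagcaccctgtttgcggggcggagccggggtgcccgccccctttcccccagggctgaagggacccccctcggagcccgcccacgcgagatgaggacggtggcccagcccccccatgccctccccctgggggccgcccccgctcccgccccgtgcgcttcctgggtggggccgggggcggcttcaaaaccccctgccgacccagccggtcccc
TGFB2: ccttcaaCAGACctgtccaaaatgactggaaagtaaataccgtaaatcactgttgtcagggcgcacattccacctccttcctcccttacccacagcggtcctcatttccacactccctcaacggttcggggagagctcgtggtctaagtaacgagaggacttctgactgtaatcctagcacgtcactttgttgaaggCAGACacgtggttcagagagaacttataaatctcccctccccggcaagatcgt
TGFB3: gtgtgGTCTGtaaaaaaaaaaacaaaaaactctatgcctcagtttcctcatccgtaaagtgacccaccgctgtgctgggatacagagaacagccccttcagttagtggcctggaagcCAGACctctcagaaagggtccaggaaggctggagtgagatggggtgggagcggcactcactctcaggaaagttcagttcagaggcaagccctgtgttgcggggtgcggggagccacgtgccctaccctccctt
LTBP1: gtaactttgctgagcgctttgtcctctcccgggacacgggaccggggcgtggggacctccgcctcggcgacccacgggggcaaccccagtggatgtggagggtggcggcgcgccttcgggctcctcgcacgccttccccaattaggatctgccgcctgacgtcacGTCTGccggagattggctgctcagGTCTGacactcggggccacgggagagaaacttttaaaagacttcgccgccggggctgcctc
LTBP3: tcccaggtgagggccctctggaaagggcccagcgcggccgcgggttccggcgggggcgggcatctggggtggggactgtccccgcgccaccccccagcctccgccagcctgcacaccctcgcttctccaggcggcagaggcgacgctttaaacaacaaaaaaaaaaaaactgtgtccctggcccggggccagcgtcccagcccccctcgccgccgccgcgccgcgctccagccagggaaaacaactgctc

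The box stood at 2 places each in the windows of TGFB2, TGFB3 and LTBP1, and at 0 places in those of TGFB1 and LTBP3, against 38.0% of all 35116 promoter windows of the same length with at least 1. TATAA occurred 2 times, counting both strands, in the window of TGFB2 and 0 times in the other 4 printed windows, against 18.9% of all windows. The 2 matches in TGFB2 overlap, as 1 stretch (ttataa) read on either strand. CANNTG, the E-box, was in 61.8% of all windows, with 3 in that of LTBP3, 1 each in those of TGFB2 and TGFB3 and 0 in those of TGFB1 and LTBP1. GATAA was in 20.4% of all windows and in none of these 5 (0 in each). The window of TGFB1 was 76.8% G and C and that of TGFB2 50.4%, against a median of 58.0%. The counts depend on the start site taken. The inner TGFB3 window (chr14:75981996-75982245) had 0 boxes, 0 E-boxes and 1 TATAA. The inner LTBP1 windows (chr2:33134119-33134368 and chr2:33134346-33134595) had 1 box each, with 3 and 2 E-boxes. The inner LTBP3 window (chr11:65558229-65558478) had 0 boxes and 1 E-box. All of these are matches of letters only. No binding was measured, and LRRC32 is not shown because it had no entry among the promoters used.

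In control cells the ligand transcripts were mostly TGFB1, and in U87MG-LMO2 cells TGFB2, LTBP3 and LRRC32 were higher and LTBP1 was lower. The fit over all genes called 3 of the 10 genes higher and 1 lower at an adjusted p under 0.05, whereas of the 16092 genes tested 4.72% were called higher, 2.75% lower and 7.48% in either direction. The 6 not called were TGFB1, TGFB3, the 3 receptors and LTBP2. The 3 U87MG-LMO2 libraries lay wholly above the 3 controls for 4 of the 10 genes and wholly below them for 1, and the groups did not overlap for 34.1% of all genes tested. The median log2 fold change of the 10 genes was 0.11, that of all genes tested -0.01. All 10 passed the filter on low counts, LRRC32 through the U87MG-LMO2 group. Because the genes were picked with this contrast in view, these counts describe the set and nothing is read from them.

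**Figure D1:**
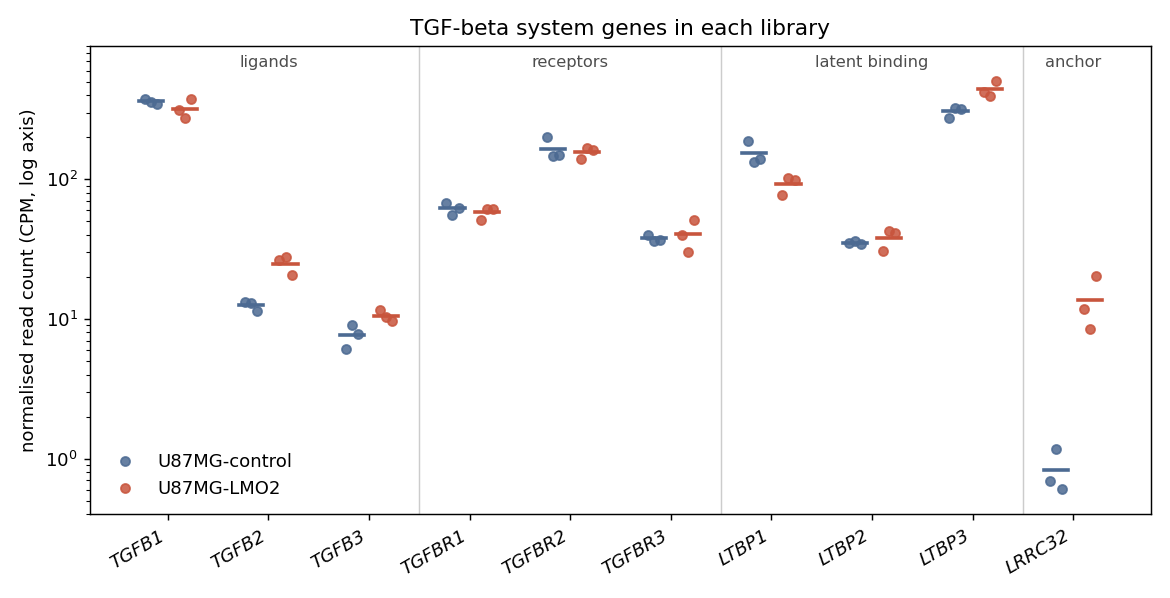
Normalised read count (CPM, log axis) of the 10 genes in each library, with points for libraries, short lines for group means (n = 3 each) and vertical lines between ligands, receptors, latent binding proteins and LRRC32. The U87MG-LMO2 points lie above all control points for TGFB2, TGFB3, LTBP3 and LRRC32 and below them for LTBP1, and the ranges of the groups overlap for the other 5 genes.

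TGFB1 (7040; chr19:41301587-41353911, minus strand, GENCODE v29 on GRCh38.p12), the most widely made ligand, had 378.0, 359.5 and 347.6 CPM in the U87MG-control libraries and 310.5, 274.3 and 374.5 CPM in the U87MG-LMO2 libraries. U87MG-LMO2 replicate 3 lay within the controls, and the other 2 lay below all of them. The gene was not called (log2 fold change -0.18, SE 0.13). Without U87MG-LMO2 replicate 3 the log2 fold change was -0.31 and the gene was called lower. Of its exonic bases, 6.6% lie opposite exons of HNRNPUL1, and the sources used here do not say whether reads were counted by strand.

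TGFB2 (7042; chr1:218346235-218444619, plus strand) had 13.2, 13.0 and 11.4 in U87MG-control, against 26.3, 27.9 and 20.5 CPM in U87MG-LMO2. The groups did not overlap, and the lowest U87MG-LMO2 library was replicate 3, the library with the most LMO2. TGFB2 rose from a mean of 12.5 ± 0.967 to 24.9 ± 3.86 CPM (SD, n = 3 each), a 1.99-fold change with a log2 fold change of 0.99 and an SE of 0.15. Its value moved little when a library was left out, between 0.90 and 1.11, yet the call was lost without U87MG-LMO2 replicate 1 (0.95) and without any single control library (0.93 to 1.03). The noncoding gene TGFB2-OT1 overlaps 26.6% of its exonic bases on the same strand, is not analysed here, and its reads cannot be told apart from those of TGFB2.

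TGFB3 (7043; chr14:75958099-75982991, minus strand) had 6.07, 8.98 and 7.79 in U87MG-control, against 11.6, 10.4 and 9.64 CPM in U87MG-LMO2. All U87MG-LMO2 libraries were above all controls, and the control farthest from them was replicate 1. TGFB3 was not called in the fit over all genes (log2 fold change 0.46, SE 0.18). Its 95% interval, which is not adjusted for the number of genes tested, ran from 0.06 to 0.87.

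Compared per transcript length, in FPKM, the ligands were far from equal. TGFB1 made up 97.6%, 97.0% and 97.3% of the summed FPKM of the 3 ligands in the U87MG-control libraries and 94.5%, 93.9% and 96.2% in the U87MG-LMO2 libraries. TGFB2 made up 1.31%, 1.35% and 1.24% in U87MG-control and 3.10%, 3.72% and 2.06% in U87MG-LMO2. TGFB3 made up 1.05%, 1.62% and 1.47% in U87MG-control and 2.40%, 2.41% and 1.70% in U87MG-LMO2. The shares of all 3 ligands did not overlap between the groups, and TGFB1 remained the main ligand transcript in all 6 libraries. Ligand FPKM summed to 163 ± 6.85 in U87MG-control and 141 ± 14.0 in U87MG-LMO2 (SD, n = 3 each). FPKM lacks the scaling between libraries used for CPM, and in CPM TGFB1 overlapped between the groups and was not called. In U87MG-control the mean FPKM of TGFB3 (2.24) and of TGFB2 (2.12) lay within each other's spread.

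The signalling receptors showed no called difference. TGFBR1 (7046; chr9:99104038-99154192, plus strand), the type I receptor kinase, had 68.1, 55.8 and 62.4 in U87MG-control, against 51.2, 61.6 and 61.0 CPM in U87MG-LMO2. TGFBR2 (7048; chr3:30606502-30694142, plus strand), the type II receptor that binds the ligand first, had 201.1, 147.3 and 148.5 in U87MG-control, against 139.8, 166.7 and 161.7 CPM in U87MG-LMO2. The groups overlapped for both genes. The log2 fold change was -0.10 (SE 0.12, 95% interval -0.37 to 0.17) for TGFBR1. It was -0.09 (SE 0.14, 95% interval -0.41 to 0.24) for TGFBR2, and 0.08 without U87MG-control replicate 1, the library with the most TGFBR2. The FPKM ratio of TGFBR2 to TGFBR1 was 3.47 ± 0.372 in U87MG-control and 3.57 ± 0.0529 in U87MG-LMO2 (SD, n = 3 each), with overlapping libraries.

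TGFBR3 (7049; chr1:91680343-91906335, minus strand), the co-receptor betaglycan, which helps TGFB2 reach TGFBR2, had 40.0, 36.1 and 36.9 in U87MG-control, against 39.8, 29.99 and 51.2 CPM in U87MG-LMO2. The control libraries lay close together, whereas the U87MG-LMO2 libraries reached both below and above them. The log2 fold change was 0.10 (SE 0.18, 95% interval -0.31 to 0.51), and it turned to -0.11 without U87MG-LMO2 replicate 3. The 95% intervals of the 3 receptors each held both negative and positive differences. The smallest receptor difference that would be called with 3 libraries a group was not tested.

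Among the latent binding proteins, which tether latent TGF-beta to fibrillin-rich matrix, LTBP1 was lower and LTBP3 higher in U87MG-LMO2. LTBP1 (4052; chr2:32946972-33399509, plus strand) had 187.4, 131.9 and 140.2 in U87MG-control, against 77.2, 102.0 and 98.0 CPM in U87MG-LMO2. Every U87MG-LMO2 library was below every control, and U87MG-control replicate 1 stood above the other 2 controls. LTBP1 fell 1.66-fold, with a log2 fold change of -0.73 and an SE of 0.16. Leaving out libraries gave log2 fold changes from -0.56 (without U87MG-control replicate 1) to -0.82 (without U87MG-control replicate 2). The call was lost without any single control library, without U87MG-LMO2 replicate 1 (-0.61) and with the replicate number as a block (-0.72).

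LTBP3 (4054; chr11:65538805-65558930, minus strand) had 272.2, 326.2 and 318.7 in U87MG-control, against 419.1, 394.1 and 506.5 CPM in U87MG-LMO2. The groups did not overlap, and U87MG-LMO2 replicate 3 was the highest library. LTBP3 rose 1.44-fold, from 305.7 ± 29.2 to 439.9 ± 59.0 CPM (SD, n = 3 each), with a log2 fold change of 0.53 and an SE of 0.13. The call was lost in the same fits as that of LTBP1, where the log2 fold change was 0.45, 0.58 and 0.56 without U87MG-control replicates 1, 2 and 3, 0.57 without U87MG-LMO2 replicate 1 and 0.52 with the block.

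LTBP2 (4053; chr14:74498170-74612378, minus strand), a matrix protein of the same family that does not bind latent TGF-beta, had 35.0, 36.4 and 34.2 in U87MG-control, against 30.8, 42.6 and 41.2 CPM in U87MG-LMO2. U87MG-LMO2 replicate 1 lay below all controls and the other 2 above them. The log2 fold change was 0.12 (SE 0.14) and was not called. LTBP4, the remaining family member and not among the 10 genes, had 168.7, 171.5 and 176.9 in U87MG-control, against 194.6, 176.8 and 265.2 CPM in U87MG-LMO2, with an edgeR adjusted p of 0.245.

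The make-up of the family differed between the groups. LTBP1 made up 26.6%, 18.5% and 19.3% of the summed FPKM of LTBP1 to LTBP4 in the U87MG-control libraries and 9.60%, 13.1% and 9.69% in the U87MG-LMO2 libraries. LTBP3 made up 46.1%, 54.0% and 53.0% in U87MG-control and 63.5%, 60.6% and 61.1% in U87MG-LMO2. The shares of LTBP2 and LTBP4 overlapped between the groups. The FPKM ratio of LTBP3 to LTBP1 was 1.73, 2.92 and 2.74 in U87MG-control and 6.62, 4.64 and 6.30 in U87MG-LMO2. Within the controls the lowest ratio was that of replicate 1, the library in which LTBP1 was highest and LTBP3 lowest.

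**Figure D2:**
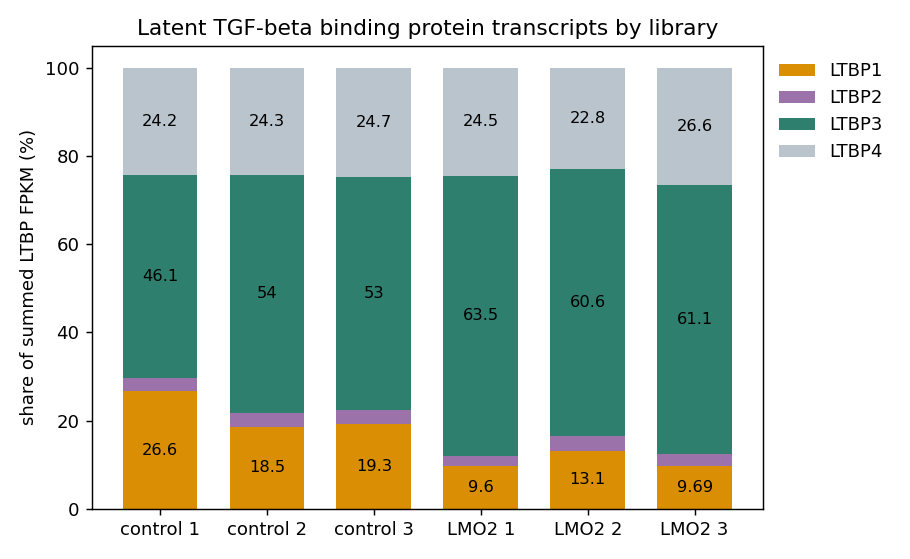
Share (%) of each latent TGF-beta binding protein gene in the summed FPKM of LTBP1 to LTBP4, as 1 stacked bar per library; no error is drawn, since each bar is a single library. The LTBP1 segment is 18.5% to 26.6% in the controls and 9.60% to 13.1% in U87MG-LMO2, and the LTBP4 segment stays between 22.8% and 26.6% in all 6 libraries.

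LRRC32 (2615; chr11:76657524-76670747, minus strand) had the largest difference of the 10 genes. Its counts were 8, 16 and 8 in the controls, against 194, 125 and 339 with LMO2. In CPM, with exact Poisson 95% intervals that cover counting error only, the controls were at 0.694 (0.30 to 1.37), 1.17 (0.668 to 1.90) and 0.605 (0.261 to 1.19). The U87MG-LMO2 libraries were at 11.8 (10.2 to 13.6), 8.52 (7.09 to 10.2) and 20.4 (18.3 to 22.7). The intervals of the controls overlapped each other, whereas replicate 3 of U87MG-LMO2, the library with the most LMO2, lay above the intervals of the other 2.

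LRRC32 rose 16.2-fold, with a log2 fold change of 4.02 and an SE of 0.41, which ranked 7 from the top among the 16092 genes tested. As the gene was selected on this difference, its call is no independent support, and with 8 counts in 2 of the 3 controls it passed the filter on low counts through the U87MG-LMO2 group and was not tested where 10 counts were required in every library. In the 12 alternative fits that held it, the log2 fold change ran from 1.76 on the log2(FPKM + 1) scale, which shrinks low values, to 4.38 without U87MG-control replicate 2. In U87MG-control its level was at percentile 2.2 of the FPKM of all genes tested. In U87MG-LMO2 it reached 3.29 ± 1.42 FPKM (SD, n = 3), within the spread of TGFB3 at 3.03 ± 0.415 FPKM. The count-weighted transcript length of LRRC32 was 3261 to 4327 bases in the controls and 3846 to 4140 bases in U87MG-LMO2, and these ranges overlapped.

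**Figure D3:**
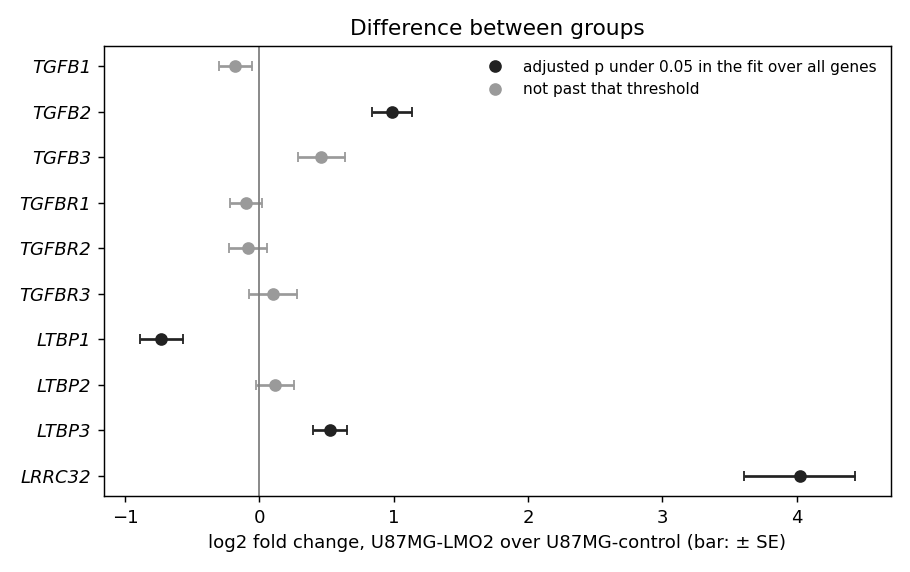
Log2 fold change of U87MG-LMO2 over U87MG-control for the 10 genes, with bars of ± 1 SE from the fit over all genes (n = 3 libraries a group); dark points passed an adjusted p under 0.05. LRRC32 stands at 4.02, TGFB2 at 0.99 and LTBP3 at 0.53, LTBP1 lies at -0.73, and the 3 receptors lie between -0.10 and 0.10.

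Because LRRC32 is known from regulatory T cells, platelets and endothelium, markers of these cells were summed in each library. The 6 regulatory T cell markers summed to 2.41 to 2.60 in U87MG-control, against 1.77 to 3.19 CPM in U87MG-LMO2, and FOXP3, IL2RA, CTLA4, CD3E and PTPRC were each under 1 CPM in every library. The 6 endothelial markers summed to 11.7 to 12.2 and 10.7 to 12.2 CPM, with CDH5 and CLDN5 under 1 CPM. Of the 6 platelet markers, 3 had values, which summed to 1.66 to 1.91 in U87MG-control, against 3.25 to 3.54 CPM in U87MG-LMO2. ITGA2B and PF4 were under 1 CPM throughout, and GP1BA, a platelet adhesion receptor chain, rose from 1.63 ± 0.0643 to 3.17 ± 0.304 CPM (SD, n = 3 each; edgeR adjusted p 0.0343). The 5 myeloid markers with values summed to 399 to 532 CPM and 306 to 584 CPM, nearly all of it CD68, and CSF1R was called higher. The 6 mesenchymal markers summed to 1160 to 1240 CPM and 1280 to 1560 CPM, nearly all of it CD44, with PDGFRB called higher and THY1 under 1 CPM. All libraries were of the U87MG line, so these sums describe marker RNA in that line and do not count cells of other types. In bulk RNA, more U87MG cells that express a gene and more RNA per cell cannot be told apart.

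The 5 genes whose log2 CPM, centred on its mean over the 6 libraries, ran closest to that of LRRC32 were RIMBP3, KRTAP1-5, MIR3648-1, MIR3648-2 and ANGPT1. The root mean square differences were 0.437, 0.513, 0.551, 0.551 and 0.558 on the log2 scale. All 5 were low in the controls. RIMBP3 had 0 counts in each control and 0.915 to 3.98 CPM in U87MG-LMO2. KRTAP1-5, a hair keratin-associated protein, had 0.0757 to 0.219 in U87MG-control, against 2.99 to 5.86 CPM in U87MG-LMO2. ANGPT1, the ligand of the endothelial receptor TEK, had 0.260 to 0.657 in U87MG-control, against 3.34 to 4.64 CPM in U87MG-LMO2. MIR3648-1 and MIR3648-2 carried identical values, are near-identical copies and are uncertain. The likeness describes 6 libraries that share the same 2 groups and is given with no test.

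Ordered by mean FPKM, which is scaled to transcript length, the 10 genes in U87MG-control ran from TGFB1 (158.4 ± 6.98) and LTBP3 (70.8 ± 6.64) through TGFBR2 (35.6 ± 6.58), LTBP1 (29.8 ± 5.87), TGFBR1 (10.2 ± 0.955), TGFBR3 (5.72 ± 0.295) and LTBP2 (4.33 ± 0.180) to TGFB3, TGFB2 and LRRC32 (0.227 ± 0.0907). TGFBR2 and LTBP1 overlapped, as did TGFB3 and TGFB2, and the libraries of all other neighbours were separate. In U87MG-LMO2 the order began in the same way, with TGFB1 at 133.8 ± 14.8, LTBP3 at 99.8 ± 9.11, TGFBR2 at 32.5 ± 2.70, LTBP1 at 17.3 ± 2.31 and TGFBR1 at 9.11 ± 0.862 FPKM (SD, n = 3). These 5 did not overlap their neighbours. The ratio of TGFB1 to LTBP3, the next gene in both groups, was 2.24 in U87MG-control and 1.34 in U87MG-LMO2. TGFBR3, LTBP2, TGFB2 (4.10 ± 0.819), LRRC32 and TGFB3 followed, and each overlapped the next.

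Other genes of the pathway were counted from 5 lists written from general knowledge but with earlier results of these data known, so their counts are not independent evidence. Among genes of latency, storage and activation, 5 of the 16 tested rose, against 4.72% of all genes tested, and the median log2 fold change was 0.48. All 5 are known to act on latent TGF-beta or its matrix, as the list was written to hold such genes, called or not. They were BMP1, a protease that cleaves LTBP1 (log2 fold change 0.77, SE 0.13, edgeR adjusted p 0.0136), MMP14 (0.73, adjusted p 0.0116), MMP2 (0.62, adjusted p 0.0285), FURIN, the convertase that cuts the TGF-beta precursor (0.50, adjusted p 0.0216), and ITGAV, the alpha chain of the integrins that release TGF-beta (0.47, adjusted p 0.0308). The call of ITGAV was lost in 8 of its 13 alternative fits. ITGB1, with MMP2 the gene of the list with the highest FPKM, had 1120 ± 47.8 in U87MG-control, against 1068 ± 89.4 CPM in U87MG-LMO2 (SD, n = 3 each; edgeR adjusted p 0.700). The list's count fell to 1 without U87MG-control replicate 1 and to 0 without replicate 2 or 3 of that group. It fell to 2 without U87MG-LMO2 replicate 1 and to 3 with the block, and it was 8 without U87MG-LMO2 replicate 3. Calls over all genes also fell, to 123 higher and 46 lower without U87MG-control replicate 1. They rose to 1307 and 1102 without U87MG-LMO2 replicate 3, against 760 and 443 in the main fit.

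Of the 11 other receptors and co-receptors tested, ENG alone was called, against 7.48% of all genes tested. ENG encodes endoglin, a co-receptor related to betaglycan, and rose from 152.8 ± 17.6 to 252.3 ± 56.3 CPM (SD, n = 3 each; log2 fold change 0.72, SE 0.17, edgeR adjusted p 0.0368). It was not called with the block, without any single control library or without U87MG-LMO2 replicate 1. NRP1, with the highest FPKM of the list, had 663.8 ± 50.3 in U87MG-control, against 656.3 ± 17.4 CPM in U87MG-LMO2 (edgeR adjusted p 0.930). The median log2 fold change of the list was -0.02.

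Of the 17 SMADs and regulators, all tested, 2 rose and 1 fell (4.72% and 2.75% of all genes tested), with a median log2 fold change of 0.09. The risers were SMAD7, which blocks the type I receptor (13.2 ± 5.86 to 35.7 ± 5.60 CPM, log2 fold change 1.42, edgeR adjusted p 0.0301), and PMEPA1, which sequesters SMAD2 and SMAD3 (3.07 ± 0.560 to 10.2 ± 4.55 CPM, log2 fold change 1.73, edgeR adjusted p 0.0207). Both are known as negative regulators that TGF-beta itself induces. ZFYVE9, which presents SMAD2 and SMAD3 to the receptor, fell (log2 fold change -0.54, edgeR adjusted p 0.0378), a call lost in 8 of its 13 alternative fits. SMAD6, the related inhibitor, named after its values were seen, had 3.12, 21.4 and 19.1 in U87MG-control, against 65.8, 44.6 and 37.8 CPM in U87MG-LMO2 and did not pass the test (edgeR adjusted p 0.0759). U87MG-control replicate 1 was also the lowest control for SMAD7, at 6.51 CPM. SMAD3 had 113.6 ± 11.6 and 111.4 ± 9.0 CPM (edgeR adjusted p 0.896) and TGIF1, a SMAD corepressor, 54.3 ± 4.3 and 40.3 ± 12.2 CPM (edgeR adjusted p 0.207). The list had 1 call without U87MG-control replicate 1 or U87MG-LMO2 replicate 2 and 2 calls with the block. It had 0 without U87MG-control replicate 2 or 3 or U87MG-LMO2 replicate 1, and 7 without U87MG-LMO2 replicate 3. Over all genes, 123 were called higher and 46 lower without U87MG-control replicate 1, and 1307 and 1102 without U87MG-LMO2 replicate 3.

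Of the 30 genes listed as targets of TGF-beta, 24 were tested, 8 rose and 1 fell (4.72% and 2.75% of all genes tested), with a median log2 fold change of 0.64. ELN, elastin, rose from 1.11 ± 0.550 to 56.5 ± 27.3 CPM (SD, n = 3 each; log2 fold change 5.62, SE 0.51, edgeR adjusted p 0.00225). CCN2, a matricellular growth factor, had 20.0, 28.3 and 26.6 in U87MG-control, against 58.8, 115.7 and 78.1 CPM in U87MG-LMO2 (log2 fold change 1.75, edgeR adjusted p 0.00813). Both were already known as called when the list was written. COL1A1, an alpha chain of type I collagen (log2 fold change 1.02, edgeR adjusted p 0.00238), and CNN1, calponin (1.08, adjusted p 0.0300), also rose. So did TGFBI, a matrix protein named for its induction by TGF-beta (1.30, adjusted p 0.0242), and POSTN, periostin (1.62, adjusted p 0.0456). POSTN was low, with 4, 5 and 9 counts in U87MG-control and 26, 27 and 16 in U87MG-LMO2. Its call was lost in 8 of its 12 alternative fits. The remaining 3, which were chosen after their values were seen, were ADAM12 and COL1A2, which rose, and ACTA2, smooth muscle actin, which fell (log2 fold change -0.81, edgeR adjusted p 0.0390).

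FN1, fibronectin, the target with the highest level beside TGFBI, had 3455, 2541 and 2704 in U87MG-control, against 4337, 3972 and 9016 CPM in U87MG-LMO2 and was not called (edgeR adjusted p 0.0755). The count of called targets was 2 without U87MG-control replicate 1 and 3 without U87MG-control replicate 2 or 3 or U87MG-LMO2 replicate 1. It was 6 with the block and 15 without U87MG-LMO2 replicate 3. Over all genes, 123 were called higher and 46 lower without U87MG-control replicate 1, and 1307 and 1102 without U87MG-LMO2 replicate 3. Of 12 activin-type ligands and binding proteins, 5 were tested and 0 were called by edgeR, 0 by DESeq2 and 0 by limma. Without U87MG-LMO2 replicate 3, edgeR called 1. In the main edgeR fit 2 of the 5 had an unadjusted p under 0.05, as did 4143 of all 16092 genes tested. Members of this list with the highest FPKM were GDF11, at 96.0 ± 6.10 and 77.5 ± 3.94 CPM (edgeR adjusted p 0.0866), and GDF15, at 8.61 ± 2.14 and 9.79 ± 7.63 CPM (edgeR adjusted p 0.822).

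**Figure D4:**
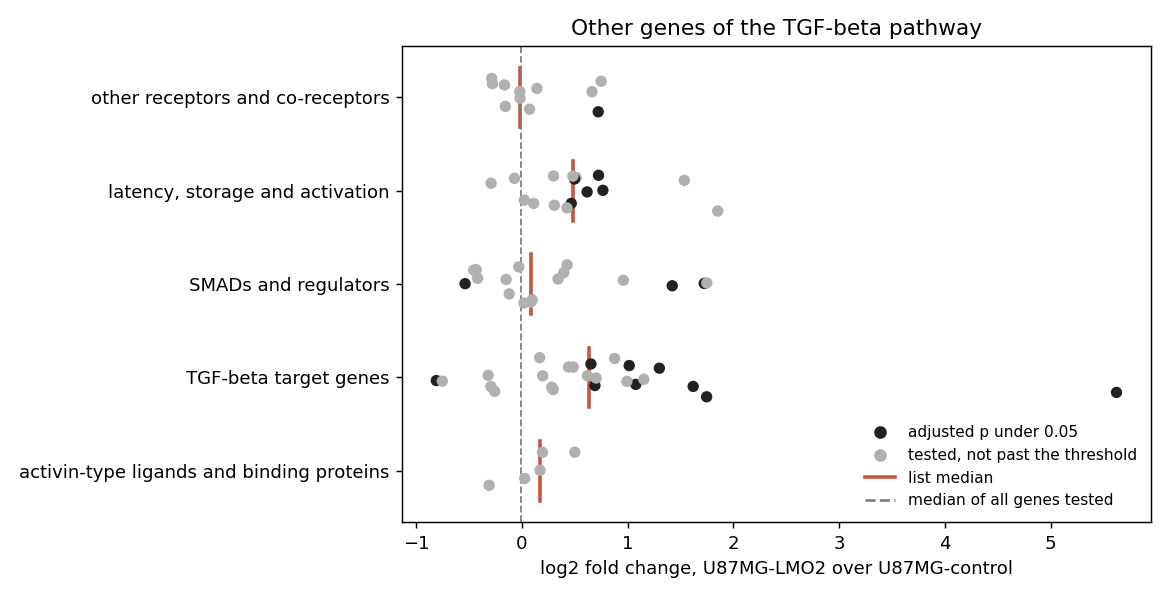
Log2 fold change of U87MG-LMO2 over U87MG-control for each tested gene of 5 TGF-beta pathway lists, with called genes dark, list medians as red lines and the median of all genes tested (-0.01) dashed; the vertical scatter within a list carries no value. The medians are 0.48 for latency, storage and activation and 0.64 for target genes, and between -0.02 and 0.17 for the other 3 lists, and ELN stands apart at 5.62.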

How the data were processed

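Total RNA of 6 U87MG libraries was sequenced by a service company. The authors deposited library tables that list, by gene ID, an expected count, which is an estimate of reads and need not be whole, and an FPKM value scaled by the authors to transcript length and mapped reads. Per the labels, the submitters' processing notes name Bowtie2, BWA and GRCh38.p12, without roles. The counting program and its strand setting are not given in the sources used here. The authors' table of the comparison also holds a log2 ratio and a probability of difference, which were not used. Its group means were used to check the library tables. The table of U87MG-LMO2 replicate 3 is damaged, and the 132 genes whose mean did not match within 0.001 FPKM, with 0.35% of the control counts, were left out of all tests. All 10 members were intact. Genes with no line were taken as 0.

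Expected counts were rounded and tested with edgeR 4.0.16 in R 4.3.3, by the quasi-likelihood test on 2 sides after filterByExpr and TMM scaling without a block, with Benjamini-Hochberg adjustment over the 16092 genes tested. SEs were derived from the log2 fold change and its F statistic. The alternatives comprised DESeq2 1.42.0, scaling by the upper quartile, no filter, at least 10 counts in every library, limma 3.58.1 on log2(FPKM + 1) and log2(FPKM + 0.1), a block on the replicate number, and leaving out each library in turn. With 1 library left out, its group keeps 2. The code was tested on simulated data. Symbols came from RefSeq by gene ID (89.6% matched), promoters from RefSeq on GRCh38.p14 (9 of 10 members matched), and positions from GENCODE v29.

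The members and lists were chosen with earlier results of these data known. The genes named were LMO2, the 10 members, the called genes of each pathway list (the 6 with the largest change where more were called) with its 2 most abundant genes, and the 5 genes most like LRRC32 with a mean of at least 1 CPM. Outside this rule, cell type markers, LTBP4 and genes that overlap a member were named, and other exceptions are marked where they appear. The markers and LTBP4 were picked for naming after their values were seen.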

Additional observations from a re-analysis of the deposited data

Results flagged for a closer look

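TGFBRAP1, an adaptor that associates with the TGF-beta receptors and stands on the list of other receptors and co-receptors, was left out of all tests because its line is missing from the damaged table of U87MG-LMO2 replicate 3. It drew attention because its values in the 2 intact U87MG-LMO2 libraries, 7.99 and 8.21 FPKM, both lay above those of the 3 controls, 6.30, 7.23 and 7.67 FPKM. The gene was picked for this separation. For comparison, the groups, with 3 libraries each, did not overlap in CPM for 34.1% of all genes tested. The difference in TGFBRAP1 was not tested.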

How the results depend on the processing

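Over 13 alternatives, the 10 members were refitted 129 times. Of these, 112 kept the direction and the side of the threshold, 14 kept the direction and lost the call, 1 gained it (TGFB1 without U87MG-LMO2 replicate 3) and 2 reversed: TGFBR2 without U87MG-control replicate 1 (0.076) and TGFBR3 without U87MG-LMO2 replicate 3 (-0.108). Of 356 refits of the other named genes, 271 kept both, 71 lost the call, 5 gained it and 9 reversed. The reversals were all of genes that were not called: SMAD3 without U87MG-control replicate 1 (0.058), U87MG-LMO2 replicate 1 (0.010) or U87MG-LMO2 replicate 2 (0.007), NRP1 without U87MG-control replicate 1 (0.040) or U87MG-LMO2 replicate 1 (0.007), and GDF15 by limma on log2(FPKM + 1) (-0.066) and log2(FPKM + 0.1) (-0.096), with the block (-0.027) and without U87MG-LMO2 replicate 3 (-0.659). LRRC32 was not tested with at least 10 counts in every library. Over the fits without 1 library, the log2 fold change ran from -0.158 to 0.076 for TGFBR2, from -0.108 to 0.273 for TGFBR3, from -0.097 to 0.058 for SMAD3, from -0.659 to 0.526 for GDF15 and from -0.063 to 0.040 for NRP1. The cause of these changes was not tested.

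With the replicate block, 387 genes were called higher and 189 lower, against 760 and 443 without it, and the calls were 2 of the members, 3 of the latency genes and 0 of the other receptors. Same-numbered libraries did not deviate together (correlations of -0.12, 0 and -0.04), so the numbers were not taken to pair them. DESeq2 called 681 genes lower. Leaving out 1 library gave 102 to 1307 genes called higher and 42 to 1102 lower. The same fits called 1 to 5 members, 0 to 7 SMADs and regulators, 2 to 15 target genes, 0 to 8 latency genes, 0 to 2 other receptors and 0 to 1 activin-type genes. The lowest depth was 11428432 counts, at which LRRC32 had 8 counts in a control library.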

Other observations

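The 3 U87MG-LMO2 libraries did not rank genes of the TGF-beta system in the same way. Replicate 3 had the most LMO2, LRRC32, LTBP3, TGFB1, TGFBR3 and FN1 of the group and the least TGFB2, ELN and TGFBI, with ELN at 79.6, 63.7 and 26.4 CPM and TGFBI at 4114, 5442 and 2915 CPM in replicates 1, 2 and 3. Replicate 2 had the most CCN2 (115.7 CPM) and PMEPA1 (15.4 CPM). All of these genes other than TGFB1 and TGFBR3 were nevertheless separated from the controls in all 3 libraries. These are values of single libraries, and whether the libraries differ beyond chance was not tested.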
